A study of Mus musculus with 9 samples.

Results

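The cytochrome P450 genes of mouse lung were described over 9 one-colour oligonucleotide arrays. A member was any probe set whose platform annotation gave a single gene symbol of the form Cyp, family number, subfamily letter and gene number. This gave 94 probe sets of 71 genes, out of 34945 probe sets of 18193 genes with 1 symbol each and 45037 probe sets that were not controls. Another 8 probe sets lay outside the rule because they carried several symbols or a name of another form, among them 3 probe sets of Cyp51, the sterol demethylase of cholesterol synthesis.

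The arrays held RNA of whole right lung from C57/BL6 (here BL6), FVB/N and SV129 mice. Each strain had 2 arrays from mice kept for 4 weeks at 50 kPa (hypobaric hypoxia) and 1 array from mice kept for 4 weeks at 85 kPa, the pressure at Denver (called normoxic in the labels). The labels name no transgene, drug or age, and they do not state whether an array was 1 mouse or a pool. They also do not say that arrays of 1 group were separate mice, so the errors and p-values below cover the spread between these arrays, which may be technical. Values are log2 signals after quantile normalization, and a difference of 1 is a change of signal by a factor of 2. Each probe set has its own response, so signals were not compared from gene to gene. Levels of different probe sets did set the filter of dim probe sets, the brightest probe set of a gene and the lung level described below. These choices are limited by the differing responses.

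Cytochrome P450 enzymes are haem proteins that insert 1 atom of oxygen into small molecules, drawing electrons from P450 reductase and cytochrome b5 in the endoplasmic reticulum or from ferredoxin in mitochondria. Families 1 to 4 oxidise foreign compounds, fatty acids and eicosanoids, while the higher numbered families mostly handle sterols, bile acids, vitamin D and retinoids. In the mouse lung, club cells of the airways carry enzymes such as Cyp2f2 that activate inhaled chemicals, and other members are known mainly from kidney, liver or adrenal gland.

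2 of the arrays, hypoxic BL6 array 2 and normoxic FVB/N array 1, carried kidney transcripts. The mean over 20 measured kidney markers was 11.02 and 12.03 on them against 5.28 to 5.95 on the other 7, and 19 of the 20 lay at least 1 log2 unit above the highest of the other 7 arrays. Markers of alveolar and airway epithelium averaged 13.93 to 14.30 on all 9 arrays. Markers of the adrenal gland, which lies on the kidney, averaged 5.32 to 5.75 over the 9 arrays, with 0 of 8 raised. The mean of 9 liver markers was 6.47 for hypoxic BL6 array 2 and 5.76 for normoxic FVB/N array 1. Both means lay above the range of the remaining arrays, 5.10 to 5.57. Of these markers 2 were raised, Apob and Ttr, and albumin was not (6.49 and 6.81 against 5.63 to 6.93). Ttr was at 10.75 and 6.65, in the same order. The part of liver RNA in the P450 signals was not tested. A list of brown fat and skeletal muscle markers averaged 9.08 on normoxic FVB/N array 1 and 5.85 to 6.34 on the other 8. The comparisons of the members below are therefore given with these arrays and, where the design allows, without them, and other gene lists on 9 arrays only. Without the pair FVB/N has no normoxic array.

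To show the regulatory sequence of the 2 kinds of gene that the results turn on, promoters of Cyp1a1, Cyp2j5 and Cyp2d26 are printed. Cyp1a1 is a lung-level gene called between BL6 and both other strains. Cyp2j5 and Cyp2d26 were the member genes with the widest gaps between the 2 arrays with kidney transcripts and the rest. Each printed promoter is the 250 bases before the RefSeq gene start (GRCm38.p6, 5′ to 3′ on the gene's strand). Cyp1a1 lies at chr9:57697363-57697612 on the plus strand, Cyp2j5 at chr4:96664120-96664369 on the minus strand and Cyp2d26 at chr15:82794246-82794495 on the minus strand. Capitals mark GCGTG, the core bound by the aryl hydrocarbon receptor with its partner Arnt, in Cyp1a1, and GTTAAT, a half-site of the tubular and hepatic factor HNF1, in Cyp2d26, where it is on the opposite strand and so reads ATTAAC.
Cyp1a1: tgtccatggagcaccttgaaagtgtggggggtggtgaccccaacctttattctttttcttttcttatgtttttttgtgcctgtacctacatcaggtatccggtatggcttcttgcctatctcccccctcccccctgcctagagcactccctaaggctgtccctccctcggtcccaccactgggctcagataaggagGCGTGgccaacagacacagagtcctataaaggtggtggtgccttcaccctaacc
Cyp2j5: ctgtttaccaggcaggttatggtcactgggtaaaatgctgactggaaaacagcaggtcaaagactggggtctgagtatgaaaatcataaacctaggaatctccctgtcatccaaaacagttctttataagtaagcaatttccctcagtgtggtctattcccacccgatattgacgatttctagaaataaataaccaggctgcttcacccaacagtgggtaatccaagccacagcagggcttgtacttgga
Cyp2d26: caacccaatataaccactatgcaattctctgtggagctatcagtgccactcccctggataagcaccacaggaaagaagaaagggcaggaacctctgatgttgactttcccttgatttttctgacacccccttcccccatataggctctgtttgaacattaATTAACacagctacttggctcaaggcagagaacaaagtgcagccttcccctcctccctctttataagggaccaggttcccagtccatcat

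In Cyp1a1 the GCGTG match starts at position -54 and in Cyp2d26 the GTTAAT match starts at position -90, counted from the gene start. Neither motif was found in this window of Cyp2j5. RefSeq promoters were matched by symbol for 51 of the 71 genes, in 58 windows. Searched on both strands, GCGTG was in 13 of these 58 windows (22.4%) and in 28.2% of all 32851 windows of the same length. GTTAAT was in 3 of 58 (5.17%) and in 6.43% of all windows. The motifs were counted separately and overlap in none of the printed windows. A match is a string of letters, not a measured site.

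Which P450 genes had a lung signal and which stood out only on the arrays with kidney transcripts was read from 2 descriptions of each probe set. A probe set was called raised where the lower of hypoxic BL6 array 2 and normoxic FVB/N array 1 lay at least 1 log2 unit above the highest of the other 7 arrays. It had a lung level where its mean over those other 7 arrays was above 6.13, the 40th percentile of all probe sets. Both classes were cut from the signals themselves, so they are descriptions and no test is attached. Read through the brightest probe set of each gene, 23 genes had a lung level only, 8 were raised only, 2 were both (Cyp2e1 and Cyp7b1) and 38 were neither. A lung level is a signal above a line and not a detection call. Cyp46a1 and Cyp2c54, with means of 6.17 and 6.38, lay close above the line. Cyp2c23 was classed as lung level only, yet it was at 7.94 on hypoxic BL6 array 2 and 7.22 on normoxic FVB/N array 1. Its highest signal on the other 7 arrays was 7.08. By probe set, 13 of 94 (13.8%) were raised, against 1.23% of all 45037 probe sets (553). In bulk tissue such as this, fewer cells of a type and less RNA per cell cannot be told apart.

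**Figure D1:**
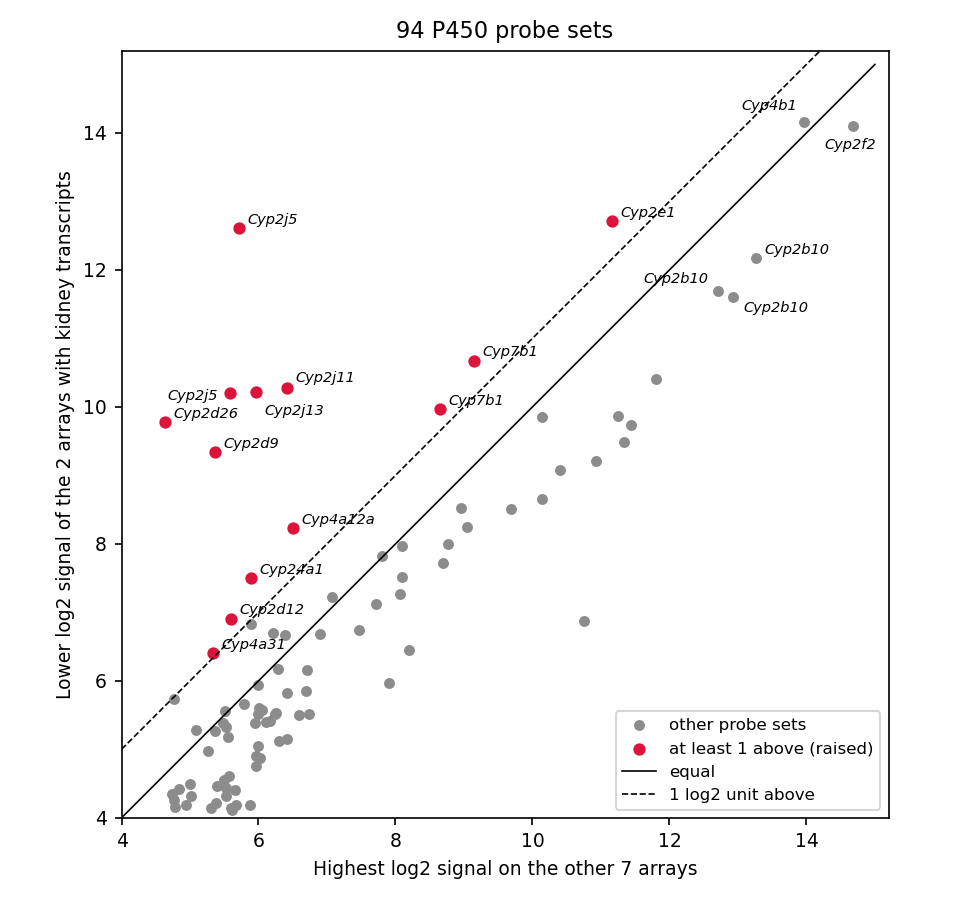
Each point is 1 of the 94 P450 probe sets. The x axis is its highest log2 signal on the 7 arrays without kidney transcripts and the y axis is the lower of its 2 log2 signals on hypoxic BL6 array 2 and normoxic FVB/N array 1. The 13 raised probe sets (red) lie on or above the dashed line 1 log2 unit over equality, with Cyp2j5 farthest from it, and the lung enzymes Cyp2f2, Cyp4b1 and Cyp2b10 lie near or below the solid line of equality.

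Among the enzymes that oxidise foreign compounds, Cyp2f2, the club-cell enzyme that activates naphthalene, was at 14.22 to 14.68 on the 7 arrays and at 14.62 and 14.10 on hypoxic BL6 array 2 and normoxic FVB/N array 1. Its SD over the 7 arrays was 0.15. Cyp4b1, which hydroxylates fatty acids and activates furans in lung, was at 13.52 to 13.97 on the 7 arrays and at 14.16 and 14.67 on the pair with kidney transcripts. That pair was above all others by 0.19, short of the line for raised. Cyp2b10, induced through the constitutive androstane receptor, was at 12.64 to 13.26 on the 7 arrays and at 12.60 and 12.17 on the pair. On each of its 3 probe sets both signals of the pair were below all 7 others.

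Cyp2s1, an epithelial enzyme, was at 10.79 to 11.80 on the 7 arrays and at 11.28 and 10.41 on the pair. Cyp1b1, a mesenchymal and vascular member of family 1, was at 8.17 to 8.96 on the 7 arrays and at 8.78 and 8.52 on the pair. Cyp1a1, the textbook target of the aryl hydrocarbon receptor, was the member of this group that varied most, from 6.91 to 10.76 on the 7 arrays, with 8.64 and 6.88 on the pair. Cyp2d22 was at 9.77 to 11.43 on the 7 arrays and at 9.74 and 10.34 on the pair. Of 7 textbook lung P450 genes listed, 6 were measured, all 6 had a lung level and 0 were raised.

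Cyp2e1, which oxidises ethanol and small solvents, was at 12.71 on hypoxic BL6 array 2 and 14.11 on normoxic FVB/N array 1, and at 8.43 to 11.16 on the other 7. The 11.16 was normoxic BL6 array 1, and the next of the 7 was normoxic SV129 array 1 at 9.72. A list of 5 measured adipocyte markers, added after these values were seen, averaged 9.26 on normoxic BL6 array 1 and 5.26 to 7.70 on the other 8, and all 5 had their highest signal there. The part of adipocyte RNA in the Cyp2e1 signal was not tested.

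Of the sterol and bile acid enzymes with a lung level, Cyp27a1, the mitochondrial sterol 27-hydroxylase, spread least, with 9.44 to 10.14 on the 7 arrays and 9.85 and 9.98 on the pair. Cyp39a1, an oxysterol 7-alpha-hydroxylase, was at 8.88 to 10.13 on the 7 arrays and at 8.93 and 8.66 on the pair. Its 2 highest signals were normoxic BL6 array 1 (10.13) and normoxic SV129 array 1 (9.89). Cyp7b1, the other oxysterol 7-alpha-hydroxylase, had a lung level of 7.83 to 9.14 on the 7 arrays and was at 10.68 and 11.78 on the pair. Its second probe set did the same, at 7.08 to 8.65 on the 7 arrays and at 9.96 and 11.63 on the pair.

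Cyp26b1, which clears retinoic acid, was at 7.02 and 7.50 on the hypoxic FVB/N arrays and at 9.21 to 10.93 on the other 7 arrays of the series, 10.16 on normoxic FVB/N array 1 among them. Of the fatty acid enzymes of family 4, Cyp4v3 was at 10.50 to 11.25 on the 7 arrays and at 10.78 and 9.86 on the pair. Cyp4f13, Cyp4f15, Cyp4f16, Cyp4f18 and Cyp4f39 had means of 7.42 to 8.35 over the 7 arrays and none was raised. Cyp2j6 and Cyp2j9, of the same subfamily as Cyp2j5, were at 7.31 to 7.80 and at 7.32 to 8.10 on the 7 arrays, with 7.83 and 7.88 and then 7.85 and 7.51 on the pair. So within the arachidonic acid epoxygenases of subfamily 2j, 3 genes were raised only and 2 had a lung level only.

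**Figure D2:**
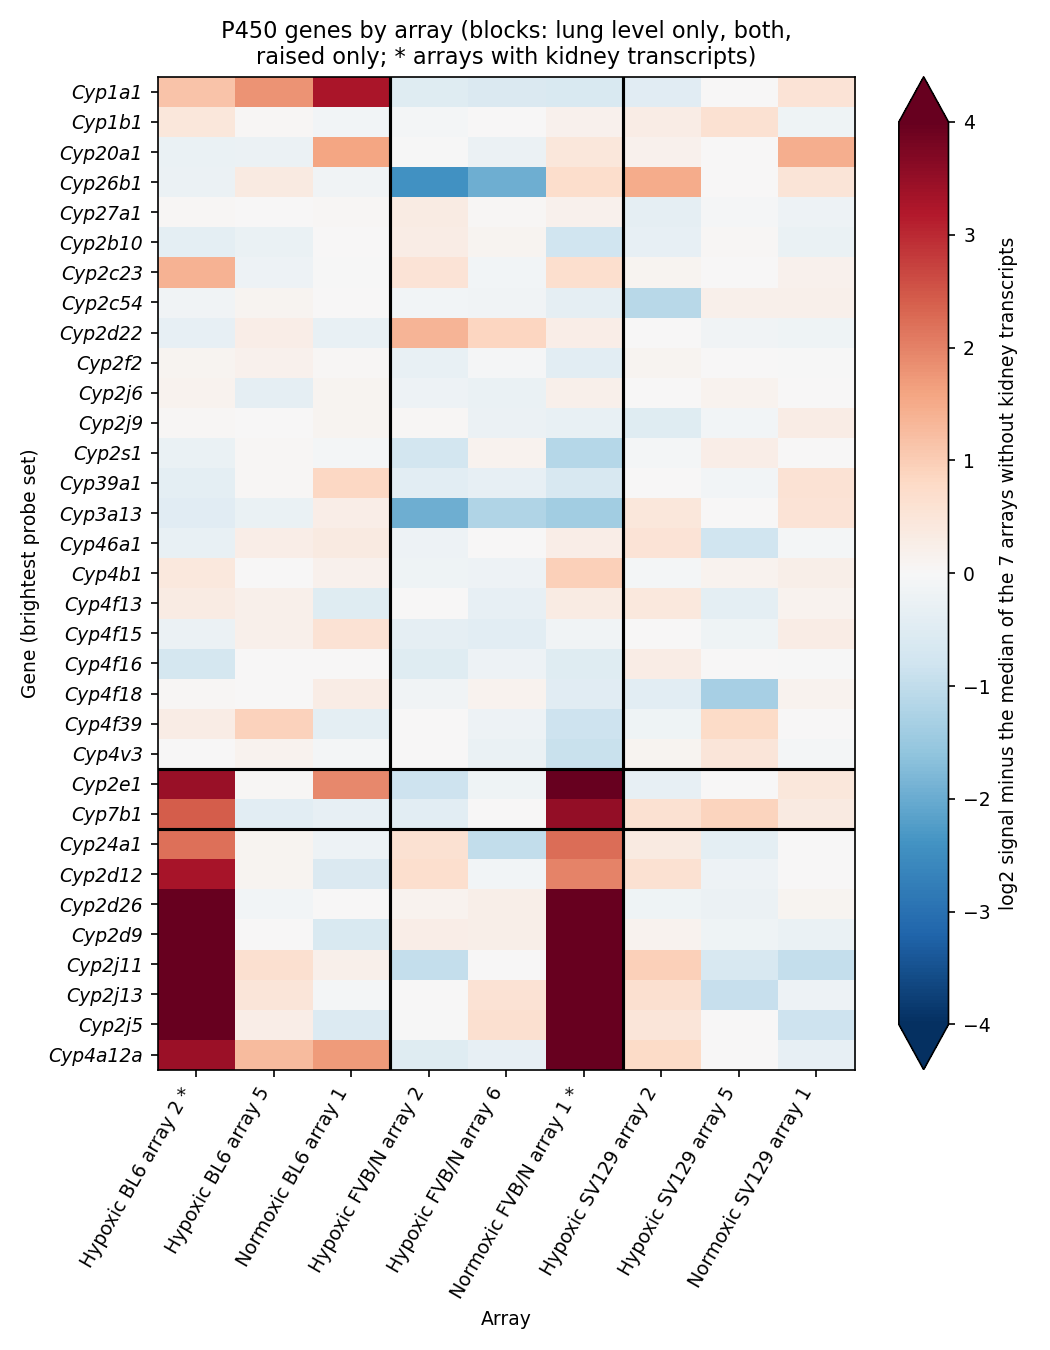
Rows are the 33 P450 genes with a lung level, raised or both, each read through its brightest probe set, and columns are the 9 arrays by strain. Colour is log2 signal minus the median of that row over the 7 arrays without kidney transcripts, red higher and blue lower, and the end colours also hold values beyond the scale. The lower rows are darkest in the 2 starred columns, while the upper rows are mostly pale, with their stronger colours in Cyp1a1 in BL6, Cyp26b1 and Cyp3a13 in FVB/N and Cyp20a1 in 2 normoxic arrays.

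The 10 raised genes were led by Cyp2j5, an arachidonic acid epoxygenase of proximal tubule. It was at 12.61 on hypoxic BL6 array 2 and 13.86 on normoxic FVB/N array 1, and at 4.22 to 5.72 on the other 7, a gap of 6.89. Its second probe set had a gap of 4.61. Its relatives Cyp2j13 and Cyp2j11 had gaps of 4.25 and 3.86, with 10.21 and 12.34 for Cyp2j13 and 10.28 and 11.61 for Cyp2j11 on the pair.

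Of subfamily 2d, Cyp2d26 was at 9.78 and 9.85 on the pair and at 4.15 to 4.64 on the other 7, a gap of 5.14. Cyp2d9, a testosterone 16-alpha-hydroxylase, had a gap of 3.97, from 9.34 and 10.42 on the pair. Cyp2d12 had a gap of 1.31, from 8.22 and 6.91. Members of subfamily 2d are similar in sequence and may share hybridisation, so the 3 may not be independent. Cyp2d22 of the same subfamily was not raised (gap -1.70).

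Cyp4a12a, a 20-HETE synthase of mouse kidney that is higher in males, was at 8.24 on hypoxic BL6 array 2 and 12.33 on normoxic FVB/N array 1, and at 4.34 to 6.51 on the other 7. Cyp24a1, the vitamin D 24-hydroxylase of tubules, was at 7.50 and 7.52 on the pair and at 4.31 to 5.89 on the other 7. Cyp2e1 and Cyp7b1 completed the 10, with gaps of 1.55 and 1.53. Just outside the line lay Cyp27b1, the renal 1-alpha-hydroxylase of vitamin D, with a gap of 0.97 (5.74 and 5.86 against at most 4.77), and the second Cyp24a1 probe set at 0.94. Just inside it lay 1 of the Cyp4a31 probe sets at 1.07, while the brighter one, which stood for the gene, had 0.49. A probe set outside the rule, annotated to both Cyp4a31 and Cyp4a10, was at 11.65 and 11.97 on the pair, a gap of 5.87. The place of Cyp4a31 near the line therefore holds for its member probe sets only.

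Of 10 textbook kidney P450 genes listed, 8 were measured and 6 were raised. The measured pair that were not were Cyp27b1 and Cyp4a14, a fatty acid hydroxylase, at 6.29 and 5.05 against 4.18 to 6.00.

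Between the 2 arrays with kidney transcripts the raised P450 genes did not keep 1 ratio. The 20 kidney markers were higher on normoxic FVB/N array 1 than on hypoxic BL6 array 2 by a median of 0.88, with a range of -0.03 to 2.56. Cyp4a12a was higher by 4.10, above that whole range, and Cyp2d12 was lower by 1.31, below it. The brighter Cyp4a31 probe set went farther the same way, with 10.76 on hypoxic BL6 array 2 and 6.70 on normoxic FVB/N array 1, while the dimmer one went the opposite way, with 6.41 and 7.62, within the range of the markers. Cyp2j5, Cyp2j11, Cyp2j13, Cyp2d9, Cyp7b1, Cyp2e1, Cyp2d26 and Cyp24a1 lay within it. Of 4 measured sex-linked transcripts, the Y-linked Eif2s3y was at 9.72 and 9.75 on the pair and at 9.31 to 10.92 over all 9 arrays. Over the 4, normoxic FVB/N array 1 minus hypoxic BL6 array 2 ran from -1.03 to 0.81, with a median of -0.08. The part of sex in these differences was not tested. Strain, pressure and array cannot be told apart in this comparison, which has 1 array on each side and so no replicate check.

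**Figure D3:**
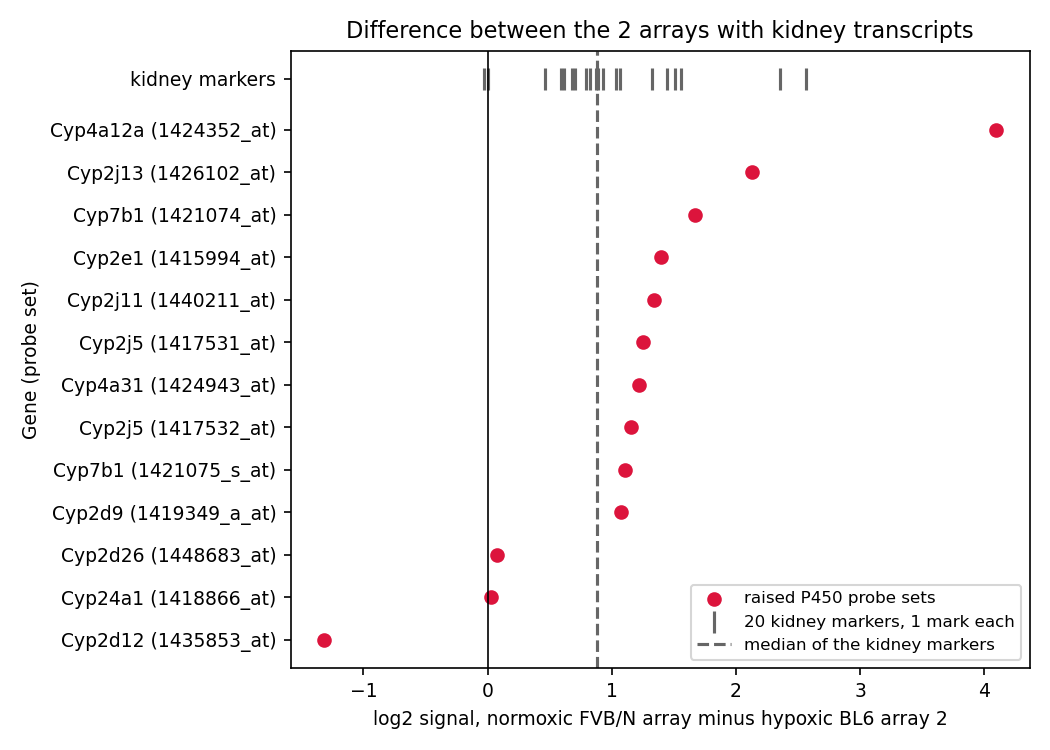
Points are the 13 raised P450 probe sets, and the x axis is the log2 signal on normoxic FVB/N array 1 minus that on hypoxic BL6 array 2. Grey marks in the top row are the 20 kidney markers, with their median of 0.88 as the dashed line. Cyp4a12a at 4.10 and Cyp2d12 at -1.31 lie outside the range of the markers.

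The 38 genes that were neither raised nor at a lung level include enzymes of liver and adrenal gland. Cyp11a1, Cyp11b1, Cyp11b2, Cyp17a1 and Cyp21a1, the steroid synthesis enzymes of the adrenal gland, had gaps of -0.75 to -0.09. Cyp7a1 and Cyp8b1, enzymes of hepatic bile acid synthesis, were at 4.94 to 6.60 on the 7 arrays and at 5.50 to 5.84 on the pair. Cyp1a2, the hepatic partner of Cyp1a1, was at 4.19 to 5.68 on the 7 arrays and at 4.19 and 4.52 on the pair. For such dim probe sets a low signal sets no upper bound on the transcript, as detection calls were not used.

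The second question was whether P450 signals differed between strains. For all tests, the dimmest 40% of probe sets by mean over the 9 arrays were left out, and a call is a Benjamini-Hochberg adjusted p below 0.05 in limma over the 27022 probe sets that remained. Of the 94 members 43 passed (45.7%), from 32 genes. Of the 13 raised probe sets 9 passed, but only 3 pass on the 7 other arrays, so a raised member that passed had to differ and counts over the members that passed support no direction. An additive model of strain and pressure over 9 arrays was used, and the difference is the first strain minus the second at equal pressure.

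Cyp1a1 was higher in BL6 than in the other strains. Its signals were 8.64, 9.30 and 10.76 in BL6 (the last normoxic), 7.01, 6.91 and 6.88 in FVB/N and 7.04, 7.50 and 8.05 in SV129. All 3 BL6 arrays were above all 6 others. BL6 exceeded FVB/N by 2.63 ± 0.37 (SE, 6.20-fold, adjusted p = 0.00638) and SV129 by 2.03 ± 0.37 (4.09-fold, adjusted p = 0.0223). Without the pair of arrays with kidney transcripts the differences were 2.54 (adjusted p = 0.00809) and 2.32 (adjusted p = 0.0045). The first held with any 1 of the 9 arrays left out. The second did not pass when normoxic BL6 array 1 (adjusted p = 0.0633), normoxic SV129 array 1 (0.107), hypoxic BL6 array 5 (0.119) or either of hypoxic SV129 arrays 2 and 5 (0.0929 and 0.0617) was left out. FVB/N minus SV129 was -0.60 ± 0.37 and was not called (adjusted p = 0.46).

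Cyp3a13, a steroid and drug hydroxylase of family 3, was lower in FVB/N. Its signals were 6.92, 7.10 and 7.64 in BL6, 5.40, 6.17 and 5.97 in FVB/N and 7.81, 7.36 and 7.91 in SV129, and the FVB/N arrays overlapped neither other strain. FVB/N minus SV129 was -1.85 ± 0.27 (adjusted p = 0.00754), and without the pair of arrays it was -1.79 (adjusted p = 0.034). This call was lost without normoxic SV129 array 1 (adjusted p = 0.0502). BL6 minus FVB/N was 1.37 ± 0.27 (adjusted p = 0.0357). That call was lost without the pair of arrays (1.39, adjusted p = 0.182), with no filter on dim probe sets (adjusted p = 0.0626) and when any 1 of hypoxic BL6 array 2 (adjusted p = 0.0761), hypoxic BL6 array 5 (0.171), hypoxic FVB/N array 2 (0.139), normoxic BL6 array 1 (0.183), normoxic FVB/N array 1 (0.0744) or normoxic SV129 array 1 (0.0795) was left out.

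Cyp2d22, the member of subfamily 2d with a lung level, was higher in FVB/N than in SV129. On the dimmer of its 2 probe sets the signals were 10.33, 10.40 and 9.79 in FVB/N, 8.87, 8.94 and 9.08 in SV129 and 9.08, 9.52 and 9.28 in BL6. FVB/N minus SV129 was 1.21 ± 0.21 on this probe set (adjusted p = 0.0158) and 0.94 ± 0.23 on the brighter one (adjusted p = 0.0741). Without the pair of arrays with kidney transcripts both passed, at 1.41 (adjusted p = 0.0115) and 1.11 (adjusted p = 0.0455). On 9 arrays the call was lost when either of hypoxic FVB/N arrays 2 and 6 (adjusted p = 0.07 and 0.0756) or of hypoxic SV129 arrays 2 and 5 (0.0651 and 0.058) was left out. Cyp26b1, described above, gave -1.89 ± 0.66 between FVB/N and SV129 on 9 arrays (adjusted p = 0.201) and -2.98 ± 0.42 without the pair (adjusted p = 0.0115), with the high FVB/N signal of normoxic array 1 no longer in the fit.

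**Figure D4:**
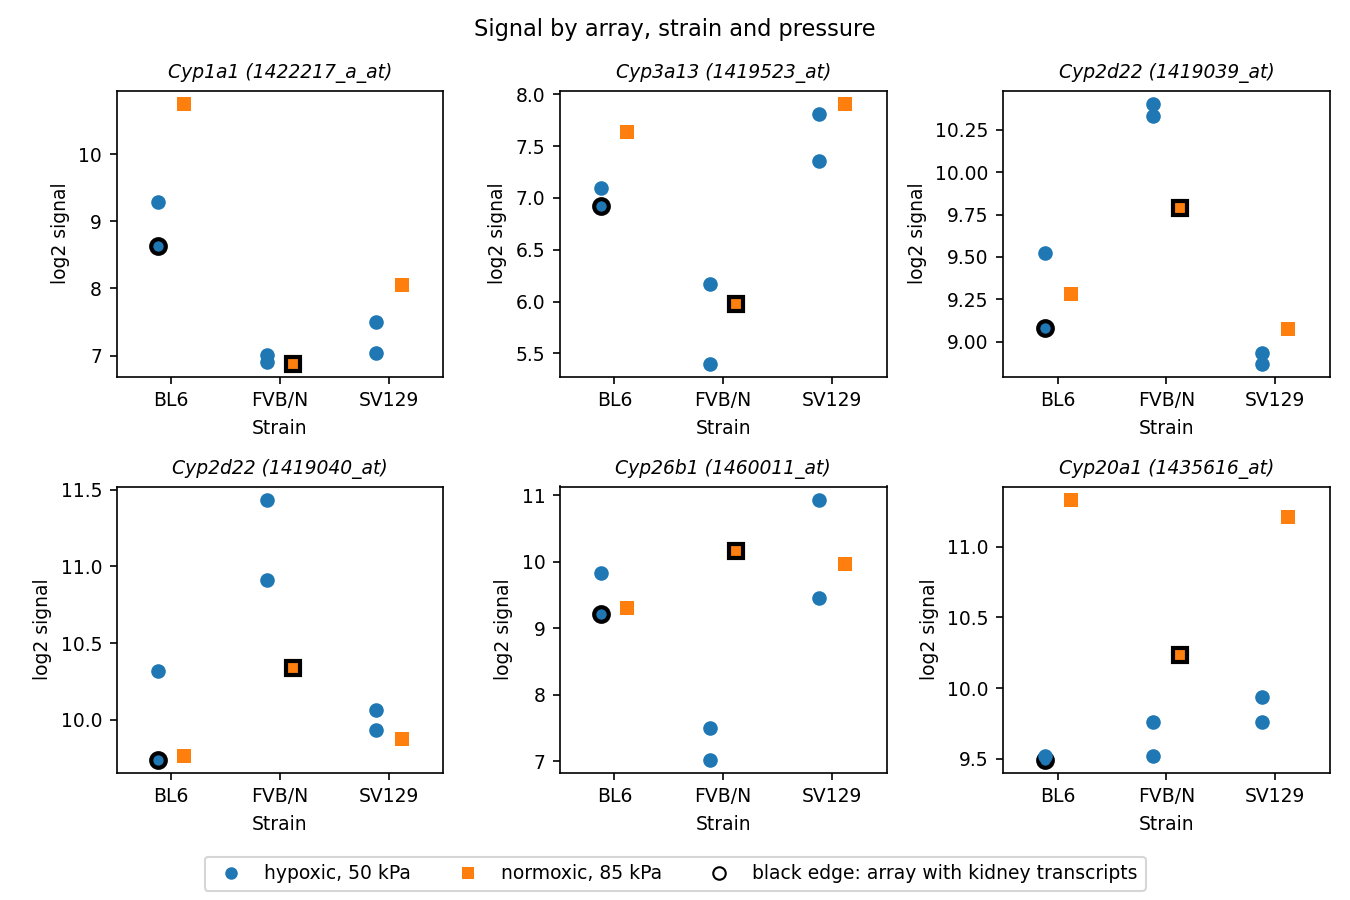
Each panel is 1 probe set, with log2 signal on the y axis and strain on the x axis. Circles are the hypoxic arrays and squares the normoxic ones, 1 symbol per array, and a black edge marks the 2 arrays with kidney transcripts. The 3 BL6 symbols of Cyp1a1 lie above all others, the 3 FVB/N symbols of Cyp3a13 lie below all others, the hypoxic FVB/N symbols of Cyp26b1 lie alone at the bottom and the 3 normoxic symbols of the brightest Cyp20a1 probe set lie at the top.

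Over the members, 2 of 43 probe sets were called between BL6 and FVB/N against 2.07% of all tested, 1 of 43 between BL6 and SV129 against 2.51%, and 2 of 43 between FVB/N and SV129 against 2.89%. On the 7 arrays without kidney transcripts 35 members passed the filter, and the counts were 1 (1.2% of all), 1 (2.06%) and 4 (2.15%). The median difference over the 43 members was 0.15 for BL6 minus FVB/N, 0.15 for BL6 minus SV129 and 0.04 for FVB/N minus SV129, beside -0.01, -0.03 and -0.03 over all probe sets tested.

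The third question was whether chronic hypoxia altered P450 signals. Across strains 1 of 43 members passed, against 3.76% of all 27022 probe sets (1016). It was Cyp20a1, an orphan P450 with no settled substrate. Its brightest probe set was at 11.33, 10.23 and 11.21 on the normoxic arrays of BL6, FVB/N and SV129, and at 9.49 to 9.94 on the 6 hypoxic arrays, without overlap. It fell by 1.26 on the log2 scale (SE 0.21, 95% interval -1.73 to -0.78, adjusted p = 0.0207). Without the pair of arrays with kidney transcripts it fell by 1.55 (adjusted p = 0.037).

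The other probe sets of Cyp20a1 did not follow. They gave 0.11 (adjusted p = 0.855) and 0.72 (adjusted p = 0.0812), and on the second of these all 6 hypoxic arrays (6.54 to 6.74) lay above all 3 normoxic ones (5.51 to 6.20). So the direction for the gene as a whole was not settled by these probe sets. The call on the brightest probe set was lost without hypoxic BL6 array 5 (adjusted p = 0.0746), hypoxic FVB/N array 6 (0.0501), normoxic BL6 array 1 (0.108) or normoxic SV129 array 1 (0.113).

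Among the members, the club-cell and xenobiotic enzymes of the lung named next showed no call. Cyp2f2 gave 0.13 (95% interval -0.07 to 0.33), Cyp4b1 -0.43 (-0.89 to 0.02), Cyp2b10 0.26 (-0.22 to 0.75), Cyp2s1 0.29 (-0.23 to 0.82) and Cyp1b1 0.25 (-0.19 to 0.70) across strains. Without the pair of arrays these were 0.09, -0.20, -0.05, 0.09 and 0.43, so the Cyp2b10 estimate changed sign. For Cyp2f2 the interval spans a range narrower than that of the other 4. A missed threshold does not show that the signals were equal at both pressures. A probe set outside the rule, annotated to both Cyp2a5 and Cyp2a4, did separate by pressure. It was at 11.68, 12.18 and 11.32 on the normoxic arrays of BL6, FVB/N and SV129, and at 8.50 to 11.22 on the hypoxic arrays. The 11.22 was hypoxic BL6 array 2. As this probe set was not a member, no test is reported for it.

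Cyp1a1 gave -0.83 ± 0.32 (adjusted p = 0.17) across strains. Hypoxic minus normoxic was -1.79 in BL6 (adjusted p = 0.122) and -0.78 in SV129 (adjusted p = 0.697), and in FVB/N the 3 arrays lay within 6.88 to 7.01. Without normoxic FVB/N array 1 it passed, at -1.28 (adjusted p = 0.0478), as did Cyp39a1, at -0.82 (adjusted p = 0.0469). Without the other array with kidney transcripts as well, Cyp1a1 was at -1.07 (adjusted p = 0.0991) and Cyp39a1 at -0.71 (adjusted p = 0.114). Cyp2e1 gave -2.05 ± 0.98 (adjusted p = 0.25) on 9 arrays and -1.17 ± 0.32 (adjusted p = 0.14) on 7, where the highest signal was normoxic BL6 array 1. The adipocyte markers, listed after the data were seen and all highest on that array, had a median hypoxia difference of -1.47 on 9 arrays. Of the 4 tested 1 was called, lower in hypoxia, against 3.76% of all probe sets. The part of adipocyte RNA in these P450 differences was not tested.

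**Figure D5:**
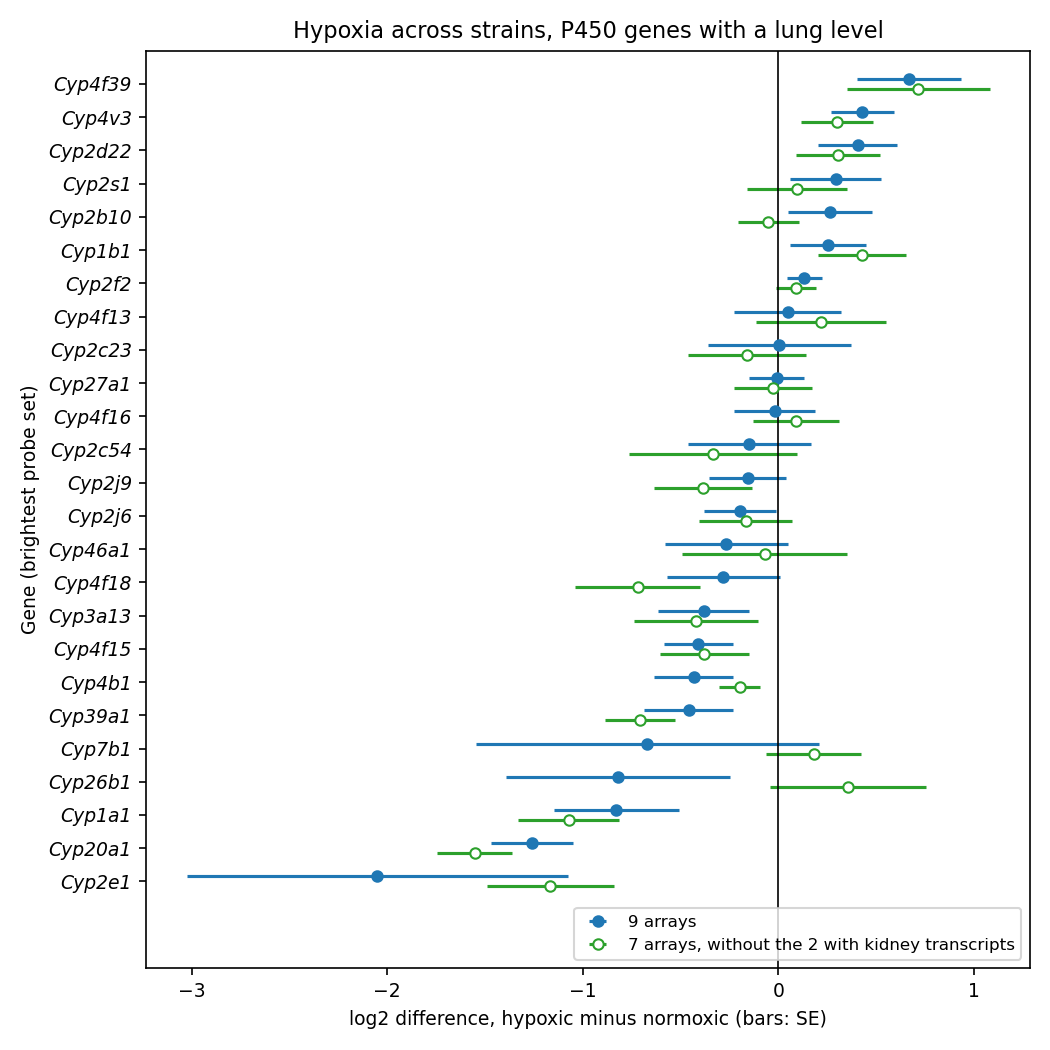
The x axis is the log2 difference, hypoxic minus normoxic, across strains, for the 25 P450 genes with a lung level (brightest probe set), with bars of 1 SE. Filled circles are the fit on 9 arrays and open circles the fit on the 7 arrays without kidney transcripts. Cyp20a1 is the only gene that passed the threshold, and the bars of Cyp2e1 and Cyp7b1 are several times shorter on 7 arrays.

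Over the 43 members that passed the filter the median hypoxia difference was -0.16, with 28 below 0 and 15 above, beside 0.04 over all probe sets. The 9 raised probe sets among them were all below 0 (median -1.30), where 1 of 3 normoxic and 1 of 6 hypoxic arrays carried kidney transcripts. Over the other 34 the median was -0.01 (19 below, 15 above). An unadjusted p below 0.05 was reached by 6 members (14.0%), against 22.2% of all probe sets. On the 7 arrays 1 of 35 members passed, against 0.844% of all tested.

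Within strains the spread came from the 3 pairs of hypoxic arrays, and the lone normoxic array of a strain was assumed to vary alike. In BL6 limma called 0 of 43 members (0.0148% of all, or 4 probe sets), with 5 at an unadjusted p below 0.05 (12.5% of all probe sets reached this). Without both arrays with kidney transcripts it called 0 of 35 members and 0% of all, with 5 at an unadjusted p below 0.05 (6.93% of all), among them Cyp20a1 at -1.81 (adjusted p = 0.363), Cyp2e1 at -1.88 (adjusted p = 0.408) and Cyp1a1 at -1.46 (adjusted p = 0.485). Without hypoxic BL6 array 5, the BL6 comparison sets hypoxic array 2, with its kidney transcripts, against the normoxic array, and 6 members passed, against 0.766% of all. They were 5 raised probe sets, led by Cyp2j5 at 8.07, whose direction here was fixed by the choice of raised genes, and the brighter probe set of Cyp4a31. In SV129, whose 3 arrays carry no kidney transcripts, limma called 0 of 43 members and 0% of all, with 3 members at an unadjusted p below 0.05 (7.58% of all). Fitted without the pair it called 0 of 35 and 0% of all, with 2 members at an unadjusted p below 0.05 (5.85% of all), Cyp20a1 and Cyp4f18. On 9 arrays the 3 were Cyp20a1 at -1.36 (adjusted p = 0.356), Cyp4f18, a leukotriene hydroxylase of leukocytes, at -1.02 (adjusted p = 0.615) and Cyp39a1 at -0.64 (adjusted p = 0.659).

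In FVB/N 9 of 43 members were called, against 6.8% of all (1837), and each rests on normoxic FVB/N array 1, the lone control. Of these, 5 were raised probe sets, which had to be lower on the hypoxic arrays: Cyp4a12a (-7.92), Cyp2j13 (-6.73), Cyp2j11 (-6.62), Cyp2e1 (-5.36) and 1 of Cyp7b1 (-4.29). The other 4 were Cyp26b1 at -2.90 ± 0.58 (adjusted p = 0.0342), Cyp4b1 at -1.14 ± 0.19 (adjusted p = 0.0276) and a pair of Cyp2b10 probe sets at 1.00 ± 0.20 and 1.22 ± 0.23 (adjusted p = 0.0335 and 0.0311). On hypoxic BL6 array 2, the other array with kidney transcripts, Cyp4b1 and Cyp2b10 also lay outside the range of the 7 arrays, on the same side as on normoxic FVB/N array 1. The margins there were small. Cyp4b1 was at 14.16 against at most 13.97, and the 2 Cyp2b10 probe sets were at 12.60 and 12.06 against at least 12.64 and 12.21. For Cyp26b1 the BL6 and SV129 arrays without kidney transcripts were at 9.31 to 10.93, beside 9.21 and 10.16 on the pair. The part of kidney RNA in these 4 calls was not tested. All 9 calls were lost without either hypoxic FVB/N array and with eBayes without the intensity trend (adjusted p of 0.0552 or more).

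Whether the response differed between strains was tested by the interaction of strain and pressure. limma called 0 of 43 members and 0% of all probe sets, with 17 members at an unadjusted p below 0.05 (12.3% of all probe sets reached this). Of the 17, 9 were raised probe sets, which were chosen by their signals on these arrays and had to differ here, and the other 8 were of Cyp2b10 (3 probe sets), Cyp4b1, Cyp26b1, Cyp20a1, Cyp1a1 and Cyp39a1. The smallest adjusted p was 0.208, for Cyp4a12a. Without both arrays with kidney transcripts, where the interaction compares BL6 with SV129 only, it called 0 of 35 members and 0% of all. None of the 35 reached an unadjusted p below 0.05, against 0.999% of all, and the smallest p was 0.0564 (adjusted p = 1), for Cyp2e1. Without hypoxic BL6 array 2 alone 6 members were called (0.892% of all), all of them raised probe sets. Without hypoxic BL6 array 5 alone 11 were called (2.25% of all), of which 9 were raised probe sets and the others were of Cyp4b1 and Cyp4a31.

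The genes that supply, regulate and follow the P450 enzymes were read from 3 lists. Of the electron donors, 5 were measured and 0 of 5 were called for hypoxia in either direction, against 3.76% of all probe sets. Cyb5r3, cytochrome b5 reductase, differed most, with 12.71, 12.44 and 13.21 on the normoxic arrays and 13.01 to 13.50 on the hypoxic ones (0.53 ± 0.14, adjusted p = 0.07). The median of the list was -0.13.

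Of 13 measured regulators 10 were tested and 0 were called for hypoxia or between strains. Of all probe sets 3.76% were called for hypoxia and 2.07% to 2.89% between strains. Arnt, the shared partner of the aryl hydrocarbon receptor and the hypoxia-inducible factors, gave -0.64 ± 0.18 (adjusted p = 0.08). Ahr, the aryl hydrocarbon receptor that drives Cyp1a1, was not called between strains, with BL6 minus FVB/N at 0.19 ± 0.21 (adjusted p = 0.83) and BL6 minus SV129 at -0.18 ± 0.21 (adjusted p = 0.73). The part of the receptor in the Cyp1a1 strain difference was not tested. On the pair of arrays with kidney transcripts 4 of the 13 regulators were raised: the nuclear receptors Nr1h4 (8.48 and 10.82 against 4.62 to 6.34), Hnf4a, Vdr and Ppara.

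Of 19 tested partner oxidases, conjugating enzymes and hydrolases 0 were called for hypoxia, against 3.76% of all probe sets. Sult1d1, a sulfotransferase, had the largest estimate, -3.30 ± 1.15 (adjusted p = 0.14), and its 2 highest signals were on the pair with kidney transcripts (11.22 and 12.53). Ephx2, the soluble epoxide hydrolase that acts on the products of the 2j epoxygenases, and Ces1f were raised on that pair. Gsto1, a glutathione transferase, was higher in BL6 than in FVB/N, with 11.93, 12.27 and 12.62 against 10.64, 10.94 and 10.46 (1.60 ± 0.20, adjusted p = 0.00386). It was the only one of the 19 called between strains, where 2.07% to 2.89% of all probe sets were called.

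The airway secretory cells that carry Cyp2f2 were followed by 10 measured markers. For hypoxia 0 of 10 were called, against 3.76% of all probe sets, with a list median of 0.06. Between BL6 and FVB/N 2 of 10 were called, against 2.07% of all. Both were higher in BL6, the secretoglobin Scgb3a1 by 4.02 ± 0.58 and Chad by 1.71 ± 0.36. Between BL6 and SV129 1 of 10 was called, against 2.51% of all, with Scgb3a1 higher in BL6 by 4.45 ± 0.58. The list medians were 0.39 for BL6 minus FVB/N and 0.26 for BL6 minus SV129. Scgb3a1 was at 12.12, 13.26 and 13.79 in BL6 and at 7.16 to 10.14 on the 6 other arrays, without overlap, as for Cyp1a1. The 5 adipocyte markers, of which 4 were tested, had a median difference of 1.85 for BL6 minus FVB/N and 2.66 for BL6 minus SV129. Of the 4, 1 was called higher in BL6 than in FVB/N, against 2.07% of all probe sets. Between BL6 and SV129 2 of 4 were called, both higher in BL6, against 2.51% of all. That list was added after the data were seen, and all its markers were highest on normoxic BL6 array 1. These counts are therefore a description and support no direction. The part of airway cells and adipocytes in the Cyp1a1 difference was not tested. Cyp2f2 itself gave 0.35 ± 0.10 between BL6 and FVB/N (adjusted p = 0.156).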

How the data were processed

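The deposited table holds linear intensity signals of 9 arrays, made with software not given in the sources used here. Judged by these numbers, the authors had scaled the intensity of every array to a mean of 500 with 2% of probe sets trimmed at each end. Array medians of log2(signal + 16) were 6.76 to 6.99. Precision is limited by how few arrays there are. The design text mentions 12 more arrays, which were not analysed here.

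From 45101 probe sets 64 controls were left out. Signals were taken as log2(signal + 16), which understates changes of dim probe sets, and quantile normalized, and the dimmest 40% were left out of tests. limma 3.58.1 in R 4.3.3 was used with lmFit, eBayes with a trend and Benjamini-Hochberg adjustment, with strain and condition over 9 arrays (5 residual degrees of freedom) or 6 groups (3). The fit for hypoxia across strains was tested on simulated data with the same spread for every probe set and no kidney transcripts. That setting differs from these arrays, so it does not check the calls given here. Genes were named from GEO's platform annotation, all 94 members had an identifier in the current gene table, and 0 symbols differed. A gene was represented by its probe set of highest mean.

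Named were members past the threshold, the 15 lung-level genes of highest mean, the 15 raised genes of largest gap (10 met the line), the textbook lung and kidney P450 genes, and, of other lists, called members and the largest change. A few others were named after their values were seen. The members, lists and tests were chosen with earlier results of these data known, and the adipocyte list was added after the data were seen. Array numbers were checked for pairing and did not pair the arrays. Alternatives were other scalings, pseudocounts, filters, eBayes settings, left-out arrays, the array number as a block, other probe sets and other class limits.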

Additional observations from a re-analysis of the deposited data

Results flagged for a closer look

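In the 6 hypoxic arrays, 7 of 27 named genes had 1 array farther from the rest than Dixon's 95% value of 0.625 allows. Chance would flag about 5% of genes tested if they came from 1 population and were not picked by these signals. Neither holds here, as the arrays mix strains and raised genes were among those named, so that rate is no benchmark. In all 7 it was hypoxic BL6 array 2, on the high side. The gap as a share of the range was 0.914 for Cyp2d26, 0.911 for Cyp2j5, 0.905 for Cyp2d9, 0.8 for Cyp2e1, 0.75 for Cyp2d12, 0.728 for Cyp2j13 and 0.67 for Cyp2j11. All 7 are raised genes, and that array is 1 of the 2 that define the class, so these values describe the class again.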

How the results depend on the processing

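Counts are of P450 probe sets called. For hypoxia across strains (1) the count was 2 with median centring (5.33% of all probe sets), 2 with the authors' scaling alone (3.83%) and 2 without the eBayes trend (2.43%). For BL6 against FVB/N (2) it was 1 without a filter (1.25%), 1 with a filter of 60% (2.05%) and 1 without both arrays with kidney transcripts (1.2%). For FVB/N against SV129 (2) it was 1 with a filter of 60% (3.26%) and 4 without both arrays (2.15%). For hypoxia in FVB/N (9) it was 0 without the trend (0.0185%). With single arrays left out, the counts ran from 0 to 3 for hypoxia across strains (0.0111% to 5.14% of all probe sets), 1 to 4 for BL6 against FVB/N (0.929% to 2.77%), 0 to 1 for BL6 against SV129 (0.744% to 4.54%), 1 to 4 for FVB/N against SV129 (1.19% to 2.85%), 0 to 6 for hypoxia in BL6 (0% to 0.766%), 0 to 13 in FVB/N (0% to 14.2%), 0 to 0 in SV129 (0%) and 0 to 11 for the interaction (0% to 2.25%). Without normoxic FVB/N array 1 the added calls were Cyp1a1 and Cyp39a1 (hypoxia), Cyp2d22 and Cyp26b1 (both FVB/N comparisons). The cause was not tested.

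Array numbers did not pair the arrays (correlations of array 2 deviations between strains -0.03, -0.04 and -0.19). With the array number as a fixed replicate block the counts were 0 for BL6 against FVB/N (0.692% of all), 0 for BL6 against SV129 (1.11%) and 1 for FVB/N against SV129 (0.67%). As a random replicate block (consensus correlation -0.24) hypoxia across strains gave 5 of 43, against 20.7% of all. Array number 1 marked all normoxic arrays and no hypoxic one, so this block cannot be told apart from pressure. The count of 5 therefore cannot check the hypoxia calls. The Cyp20a1 fall reversed on its other probe sets, to 0.11 and 0.72. The 10 raised genes were 5 with a gap of 2, and the 25 lung-level genes were 42 at the 25th percentile.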
